A study of Mus musculus with 3 samples.

Results

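The genes described here are 9 members of the hedgehog pathway and of the transcription programme of splanchnic mesoderm: the receptors and surface inhibitors Ptch1, Hhip and Smo, the effectors Gli1, Gli2 and Gli3, and the splanchnic factors Foxf1, Osr1 and Barx1. They were taken by symbol, and all 9 were found among the 51923 genes of the deposited matrix. They held 107897 of its 331587989 UMIs (unique molecular identifiers, each standing for 1 captured transcript). The cells came from C57BL/6 mouse embryos carrying Mesp1-Cre, the Ai9 reporter and a floxed Wls gene, which encodes a carrier needed for Wnt secretion. Controls were Wls fl/+, with 1 floxed and 1 wild-type allele, and mutants were Wls fl/fl. Cre under Mesp1 acts in early mesoderm, so that Wls and the reporter were recombined in that lineage and its descendants, and tdTomato-positive cells were sorted after lipid-tag barcoding (MULTI-seq). The pools were captured with 10x Chromium v3 in 3 sequencing runs.

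Tests were made over 22 barcode samples, each the sum of the cells that share a run, a MULTI-seq barcode, a stage and a genotype (12 control, 10 mutant). E8.0 had 3 control and 3 mutant samples, E8.5 had 2 control and 1 mutant, and E9.5 had 6 of each. E7.5 was present as 1 control barcode with 28 cells, which had a stage level of its own in the fit of genotype over all stages. Whether a barcode stood for 1 embryo is not stated, so p-values measure the spread between these samples. The 14777 cells (9852 control, 4925 mutant) had median depths of 23112, 23555 and 11866 UMIs in the 3 runs, and samples ranged from 6 to 2508 cells. In all, 23 of the 10x cell barcodes occurred in more than 1 run. All E8.0 samples lay in run 1 and all E8.5 samples in run 2, while E9.5 lay in all 3 runs. Levels are given as CPM, a gene's UMIs scaled to a common total for each sample (counts per 1000000), and are compared within a gene only. In summed samples, fewer cells of a type and less RNA per cell cannot be told apart. The genotype labels were checked on Wls itself, which lay between 35.9 and 46.1 CPM in the 6 E9.5 controls and between 8.54 and 12.1 CPM in the 6 E9.5 mutants (log2 fold change -2.07, SE 0.10).

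Hedgehog ligands act by binding Ptch1, which otherwise holds Smo inactive at the primary cilium. Active Smo lets Gli2 and Gli3 act as activators in place of their repressor forms, and Gli1, Ptch1 and Hhip are themselves induced, which makes their RNA a common readout of the signal. Endoderm is a source of hedgehog ligand for the neighbouring splanchnic mesoderm of the gut and of the posterior second heart field. There Foxf1 is a known target, Osr1 takes part in forming the atrial septum, and Barx1 marks the mesenchyme of the stomach.

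In the mouse GRCm38 annotation (GENCODE M21) Ptch1 lies on chromosome 13 (63508328 to 63573598, minus strand), Barx1 on the same chromosome (48662998 to 48666507, plus strand) and Foxf1 on chromosome 8 (121084386 to 121088144, plus strand). Gli1 on chromosome 10 (127329882 to 127341974, minus strand) shares exonic bases with Arhgap9 on the other strand, which held 322 UMIs against 2901 for Gli1. Gli3 likewise shares exonic bases with Gm6556 (345 UMIs against 15501). The use of strand in counting is not stated, so reads over these stretches cannot be assigned to 1 gene. At the transcript ends, where these libraries are read, only Smo shared 31-base words with other genes (15 of 467, 3.21%). These words were found in 1423 other genes. Smo also overlaps the processed pseudogene Gm13717 on the same strand, without shared exonic bases (1332 UMIs against 24536).

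Of the 9 genes, 6 had a promoter in the RefSeq table (GRCm38.p6); Gli1, Foxf1 and Osr1 had no entry. The 2 below are shown because Ptch1 is the receptor whose own transcription reads out the pathway, and Barx1 had the largest change between stages. Each is the part upstream of the RefSeq start that overlaps no annotated exon, at chr13:63565736-63565985 on the minus strand for Ptch1 and chr13:48662786-48662997 on the plus strand for Barx1. Capitals mark the letters TGGGTGG, the first 7 of the Gli-binding consensus TGGGTGGTC, searched on both strands.
Ptch1: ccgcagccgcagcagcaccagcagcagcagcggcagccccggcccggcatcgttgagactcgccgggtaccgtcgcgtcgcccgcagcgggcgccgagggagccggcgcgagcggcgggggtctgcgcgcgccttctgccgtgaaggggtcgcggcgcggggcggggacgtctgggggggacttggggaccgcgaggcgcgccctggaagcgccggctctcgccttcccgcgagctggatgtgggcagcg
Barx1: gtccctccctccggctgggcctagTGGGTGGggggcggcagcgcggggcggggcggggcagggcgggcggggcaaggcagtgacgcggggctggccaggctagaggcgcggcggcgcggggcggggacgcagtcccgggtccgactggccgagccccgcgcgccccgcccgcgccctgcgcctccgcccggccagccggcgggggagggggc
The full consensus was found in 83 of the 32851 promoters in the table (0.253%) and in none of the 6, searched over 250 bases before to 50 after each start. The shorter TGGGTGG was found in 3056 promoters (9.30%) and, of the 6, in that of Barx1. The printed stretches were 78.4% and 85.4% G and C. The median over all promoters was 52.7%, but over the whole window of 250 bases before to 50 after each start, exons included. The RefSeq start used for Ptch1 lies inside the longer GENCODE gene, so other Ptch1 starts are not covered by this window.

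To ask which cells carried the RNA, cells were clustered without the 9 genes, without the other hedgehog genes and without Wls, and clusters were named "-like" from marker lists. Of 21 groups of cells, 18 had at least 3 samples with 20 or more cells and are compared here as mean ± SD over those samples. These means pool stages, which the groups hold in unlike proportions, so an order of pooled means need not hold at each stage. One group without a name, cluster 4, stood first for 5 of the 9 genes in the pooled means. It held 823 cells (5.57%), nearly all from E8.5 and E9.5, with Cxcl13, Hlx and Wnt4 among its leading genes, and the posterior second heart field or splanchnic list was the nearest of the marker lists without reaching the share needed for the name. Barx1, Foxf1 and Osr1 were among its 10 leading genes although they took no part in the clustering; no test is given for a cluster against the rest.

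Among the receptors and inhibitors, Ptch1 had its highest pooled means in cluster 20 (276 ± 95.7 CPM, n = 8), a group led by Tdo2, Nkx2-3 and Hand1, and in cluster 4 (264 ± 55.2, n = 10), 2 values that overlap. By stage the order differed. At E8.0 paraxial mesoderm or sclerotome-like cells (212 ± 50.3, n = 5), cluster 20 (203 ± 41.5, n = 4) and cluster 5 (198 ± 18.1, n = 6), a group led by Cdx4, Lhx1 and Cdx2, overlapped, and cranial mesoderm-like cells held 89.6 to 149 CPM (n = 6). At E9.5 cluster 20 held 382 ± 39.2 (n = 3), cluster 4 272 ± 55.6 (n = 8), and cranial mesoderm-like cells 250 to 283 CPM in 3 samples, all mutant. At clustering resolution 2 the cranial mesoderm-like group held 370 cells in place of 504. Its pooled Ptch1 mean was then 99.8 ± 31.3 CPM (n = 6) in place of 168 ± 79.6 (n = 9). The lowest pooled means were those of blood-like cells (19.3 ± 6.95, n = 16) and cluster 14 (15.3 ± 2.22, n = 4). Hhip, the surface protein that captures hedgehog ligand, was more restricted. Cluster 4 held 25.4% of all Hhip UMIs, and at E9.5 37.8 ± 13.7 CPM (n = 8) against 26.9 ± 17.5 in cluster 20 (n = 3), which overlap. At E8.0 cluster 7 held 16.1 ± 14.5 (n = 5) and cluster 20 13.1 ± 7.07 (n = 4), which overlap too, and blood-like cells held 0.326 ± 0.311 over all stages. Smo, the transducer, was nearly flat. Its pooled means ranged from 107 ± 13.9 CPM in cluster 20 through 106 ± 14.7 in cluster 5 and 101 ± 8.01 in cluster 6 (n = 5) down to 53.6 ± 9.44 in cardiomyocyte-like cells (n = 18), with blood-like cells alone far lower at 16.8 ± 11.01.

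The 3 effectors did not share 1 order of cells. Gli1, the activator induced by the signal, was at E8.0 28.2 ± 7.23 CPM in paraxial mesoderm or sclerotome-like cells (n = 5) and 18.5 ± 3.87 in cluster 5 (n = 6), with values that overlap. At E9.5 it was 27.0 ± 4.46 in cluster 4 (n = 8) and 23.8 ± 5.27 in cluster 20 (n = 3), which also overlap. Gli2, the main activator, was at E8.0 27.1 ± 5.76 CPM in paraxial mesoderm or sclerotome-like cells (n = 5) and 26.7 ± 3.78 in cranial mesoderm-like cells (n = 6), and at E9.5 33.3 ± 4.28 in cluster 6 (n = 5), a group led by Gal, Lix1 and Hoxc5, 33.1 ± 5.30 in cluster 7 (n = 7) and 29.3 ± 5.98 in cranial mesoderm-like cells (n = 3), values that overlap at each stage. In cluster 6 Ptch1 was 28.6 ± 2.35 CPM and Gli1 2.64 ± 1.12 CPM. Gli3, the main repressor, was at E8.0 101 ± 17.6 CPM in cranial mesoderm-like cells (n = 6) and 92.8 ± 12.5 in cluster 7 (n = 5). The E9.5 values were 93.1 and 111 CPM in the 2 samples with enough pharyngeal muscle-like cells, 84.5 ± 19.1 in neural-like cells (n = 5) and 76.3 ± 30.3 in cranial mesoderm-like cells (n = 3), and the groups overlap at each stage. Blood-like cells held 0.583 ± 0.649, 1.16 ± 0.992 and 2.81 ± 1.38 CPM of Gli1, Gli2 and Gli3, the lowest mean for Gli2 and Gli3, while Gli1 was lower still in cluster 14 (0.440 ± 0.515, n = 4).

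The splanchnic factors were the most concentrated. Foxf1, a forkhead factor of splanchnic mesoderm, held 359 ± 88.6 CPM in cluster 4 (n = 10), 280 ± 48.5 in cluster 20, 179 ± 29.4 in cluster 5, lateral plate or allantois-like cells 102 ± 42.2 (n = 11), and 1.93 ± 1.66 in blood-like cells. Osr1, a zinc-finger factor, was at E8.0 63.4 ± 13.1 CPM in cluster 5 (n = 6), and the 1 E9.5 sample with enough cells of that group held 285 CPM. In cluster 4 it was 116 ± 36.1 at E9.5 (n = 8), above cluster 3 (38.8 ± 16.2, n = 7), a Nrg1 and Tbx1 group, with no overlap. Barx1, a homeobox factor, was confined most: cluster 4 held 395 ± 174 CPM and 78.2% of all Barx1 UMIs, while proepicardium-like cells came next with 42.7 ± 43.7 (n = 10) and 6.89% of its UMIs. Its level within cluster 4 varied from 83.1 CPM in 1 E9.5 control sample of run 3 to 756 CPM in the E8.5 control sample.

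After each cell was thinned to 5000 UMIs, Foxf1 was detected in 76.6% of cluster 4 cells and in 0.848% of blood-like cells, which should lack it. Ptch1 was detected in 65.0% and 9.06%, Osr1 in 35.0% and 0.313%, and Barx1 in 35.8% and 0.402%. Before thinning the cells of cluster 4 had a lower median depth (17550 UMIs) than blood-like cells (28006.5).

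**Figure D1:**
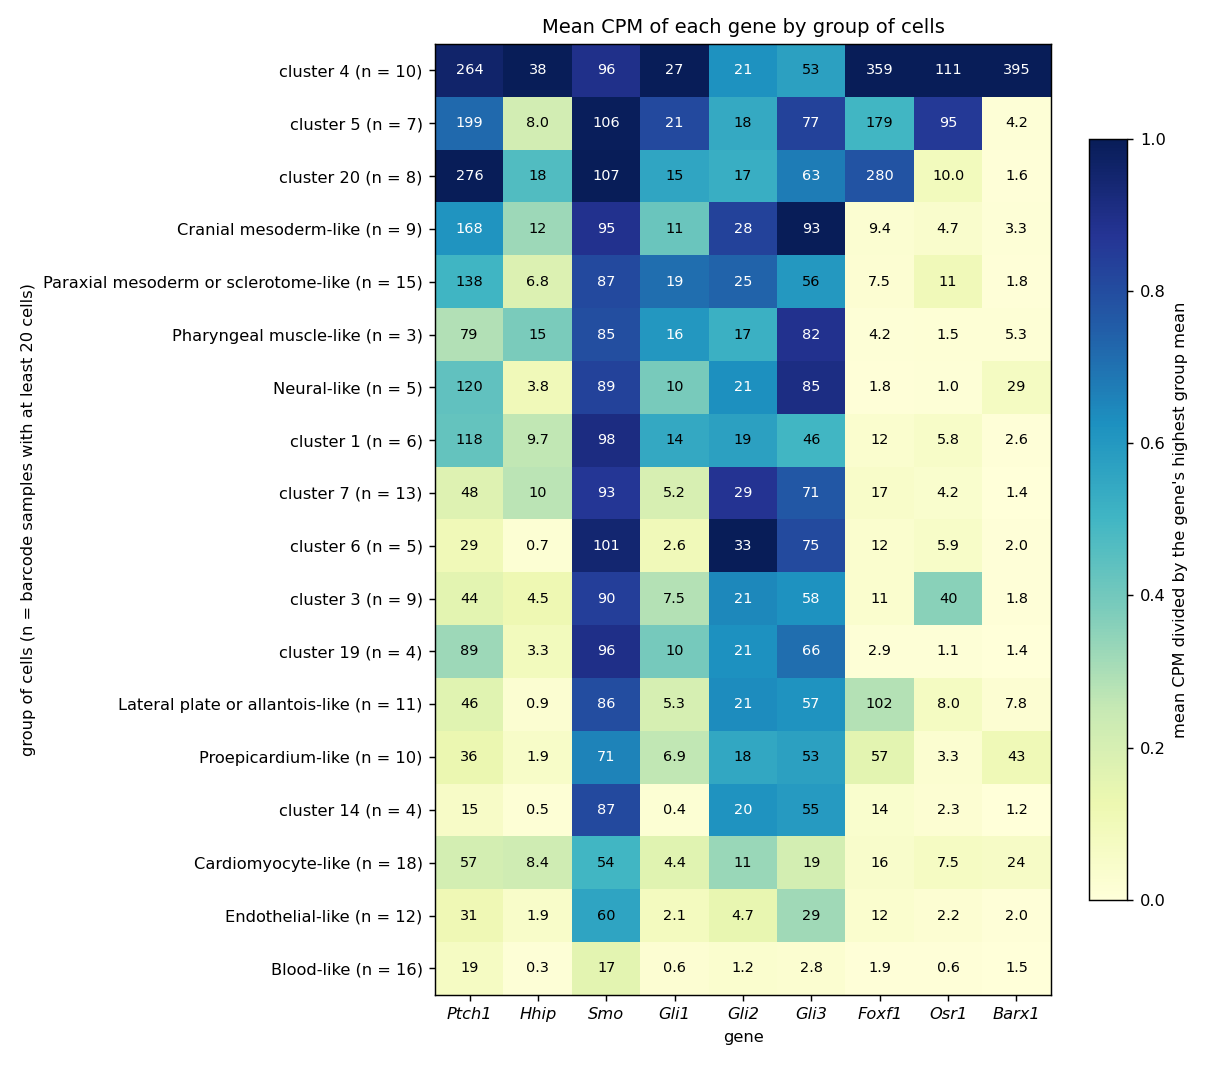
Mean CPM of each gene (columns) in the 18 groups of cells with at least 3 samples (rows); the printed value is the mean over barcode samples and the shade is that mean divided by the gene's highest group mean. Cluster 4 is darkest for Hhip, Gli1, Foxf1, Osr1 and Barx1, Smo is dark in nearly every row except blood-like, endothelial-like and cardiomyocyte-like cells, and the blood-like row is pale for every gene.

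The groups in which the genes were found also changed with stage. Cluster 5 made up 22.6 ± 3.96% of cells in E8.0 controls (n = 3) and 0.411 ± 0.574% in E9.5 controls (n = 5), and cluster 4 made up 0 ± 0% and 5.25 ± 2.78%. Within paraxial mesoderm or sclerotome-like cells, Ptch1 was 252 and 260 CPM in the 2 E8.0 control samples with enough cells, and 73.6 to 102 CPM in 4 E9.5 control samples, with no overlap. In cluster 20, Foxf1 was 229 and 299.5 CPM at E8.0 and 255 and 349 CPM at E9.5 in controls, which overlap. At E8.0 Barx1 was found mainly in cardiomyocyte-like cells, at 21.7, 63.2 and 26.2 CPM in controls and 49.6, 55.1 and 41.7 CPM in mutants. At E9.5 controls held 10.4 to 39.1 CPM of Barx1 in that group and 83.1 to 492 CPM in cluster 4.

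Summed over all cells, Barx1 rose from E8.0 to E9.5 and Ptch1, Foxf1 and Osr1 fell, while Hhip, Smo, Gli1, Gli2 and Gli3 did not pass the test. Thus 4 of 9 genes passed, beside 22.5% of the 18063 genes tested (edgeR's quasi-likelihood test, Benjamini-Hochberg adjusted p under 0.05, genotype as covariate). Over the 9 genes the median log2 fold change was -0.21, against 0.00 over all genes.

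Barx1 lay between 3.42 and 5.52 CPM in E8.0 controls and between 6.203 and 10.0 CPM in E8.0 mutants. At E9.5 its lowest, median and highest values were 0, 15.5 and 36.7 CPM in controls and 6.40, 35.3 and 43.6 CPM in mutants. The E9.5 samples were thus higher in general, but they spread widely. The lowest, a control of 6 cells (Bar6), had no Barx1 UMI. Its 95% interval for counting error reached 27.4 CPM, so its place against the E8.0 samples cannot be told. The log2 fold change was 2.20 (SE 0.39, adjusted p = 0.00037), and Barx1 passed in all 21 fits that left out 1 sample.

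Ptch1 was 102, 100.2 and 128 CPM in E8.0 controls and 108, 95.04 and 124 CPM in E8.0 mutants. At E9.5 its lowest, median and highest values were 22.3, 60.1 and 93.0 CPM in controls and 17.2, 79.2 and 89.5 CPM in mutants, so that every E9.5 sample lay below every E8.0 sample. It fell by 0.54 on the log2 scale (SE 0.16, adjusted p = 0.020), and missed the threshold without the E8.0 control Bar29 (adjusted p = 0.056).

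Foxf1 was 71.6, 55.9 and 81.2 CPM in E8.0 controls and 60.8, 59.4 and 76.8 CPM in mutants, against 0, 24.9 and 61.8 CPM (lowest, median, highest) in E9.5 controls and 9.70, 33.2 and 56.0 in E9.5 mutants. One E9.5 control, Bar4, and 1 E9.5 mutant, Bar20, reached the E8.0 range. The 0 was that of Bar6, whose 95% interval for counting error reached 27.4 CPM. Foxf1 fell by 0.86 (SE 0.27, adjusted p = 0.027) and missed the threshold in 3 of the 21 fits that left out 1 sample (E8.0 controls Bar24 and Bar29, E8.0 mutant Bar28), with an adjusted p of at most 0.060. Osr1 was 16.1, 18.0 and 24.5 CPM in E8.0 controls and 12.9, 16.1 and 27.9 CPM in mutants. At E9.5 it was 2.51, 12.9 and 17.8 CPM in controls and 8.62, 10.3 and 15.1 CPM in mutants, ranges that overlap with E8.0. Its fall of 0.51 (SE 0.18, adjusted p = 0.046) passed in only 9 of the 21 fits that left out 1 sample (adjusted p 0.025 to 0.177).

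Run and stage overlap in this comparison. With run as a further term, Barx1 passed and Ptch1 (adjusted p = 0.109), Foxf1 (0.053) and Osr1 (0.170) did not, though each kept its sign. Over all genes 3877 of 18063 passed in that fit, beside 4070 without the run term. Limma on the mean CPM per cell called 0 of the 9 and 1853 of 18063 genes. At an unadjusted p under 0.05 it had 5 of the 9 and 4753 of all genes. Within run 1 alone, which holds 6 E8.0 and 5 E9.5 samples, Barx1, Ptch1 and Foxf1 passed, Osr1 did not, and Gli2 passed with a rise of 0.38 (adjusted p = 0.008), where 29.7% of all genes passed. Blood-like cells made up 8.71% to 40.9% of the E9.5 samples of at least 20 cells, and 3.21% to 30.5% of the E8.0 samples, and are low in all 9 genes. With blood-like, megakaryocyte or myeloid-like and endothelial-like cells left out, the same 4 genes passed and Gli3 passed as well (-0.38, adjusted p = 0.016), beside 23.2% of all genes.

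**Figure D2:**
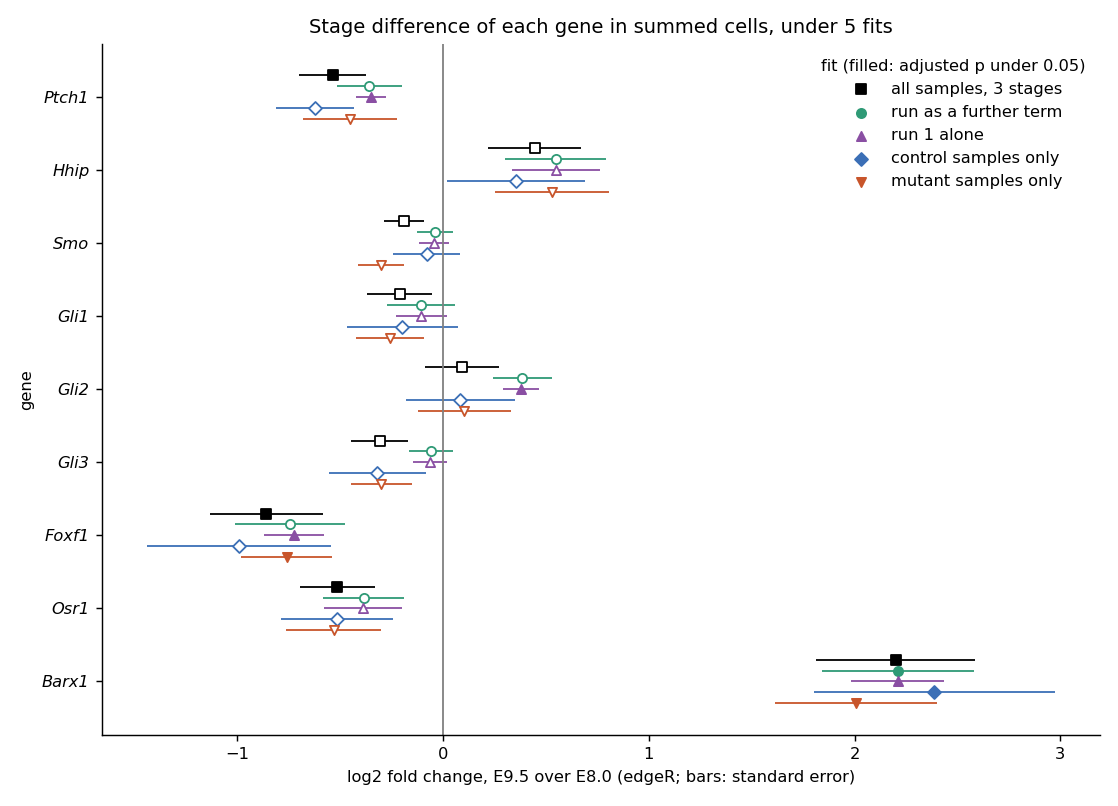
Log2 fold change of each gene from E8.0 to E9.5 under 5 fits; bars are standard errors and filled symbols passed at an adjusted p under 0.05. Barx1 lies near 2 or above in all 5 fits and is filled in each, Ptch1, Foxf1 and Osr1 lie below 0 in all 5, and Smo, Gli1 and Gli3 move toward 0 when run is a term or run 1 is taken alone.

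From E8.0 to E8.5, 2 of the 9 genes passed, where 19.0% of all genes did. Barx1 rose by 2.87 (SE 0.48, edgeR adjusted p = 0.00091). Gli3 fell by 0.91 (SE 0.22, adjusted p = 0.0080): it was 45.1 to 67.3 CPM in the 6 E8.0 samples, and 25.2, 27.6 and 25.8 CPM in the 2 controls and the mutant at E8.5, with no overlap. The share over all genes rests on few samples: 3429 genes passed, 510 without the larger E8.5 control (Bar3) and 764 without the mutant (Bar1). Without the E8.5 mutant sample Gli3 missed the threshold (adjusted p = 0.085). With run as a term neither passed (Gli3 -0.03; Barx1 2.21, adjusted p = 0.130); no run holds samples of both stages. Barx1 was 52.7 and 40.1 CPM in the larger E8.5 control and the mutant, but 4.58 CPM in the E8.5 control of 34 cells. From E8.5 to E9.5 none of the 9 passed with edgeR (0.0332% of all genes did, 6 in number). At an unadjusted p under 0.05 were 2, Gli3 (0.60 higher on the log2 scale) and Foxf1 (0.97 lower), and 22.7% of all genes. DESeq2 called 1 of the 9, Gli3, and 1659 of 18063 genes. Without the E9.5 control Bar4, 2290 of 18014 genes passed, Gli3 and Foxf1 among them.

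**Figure D3:**
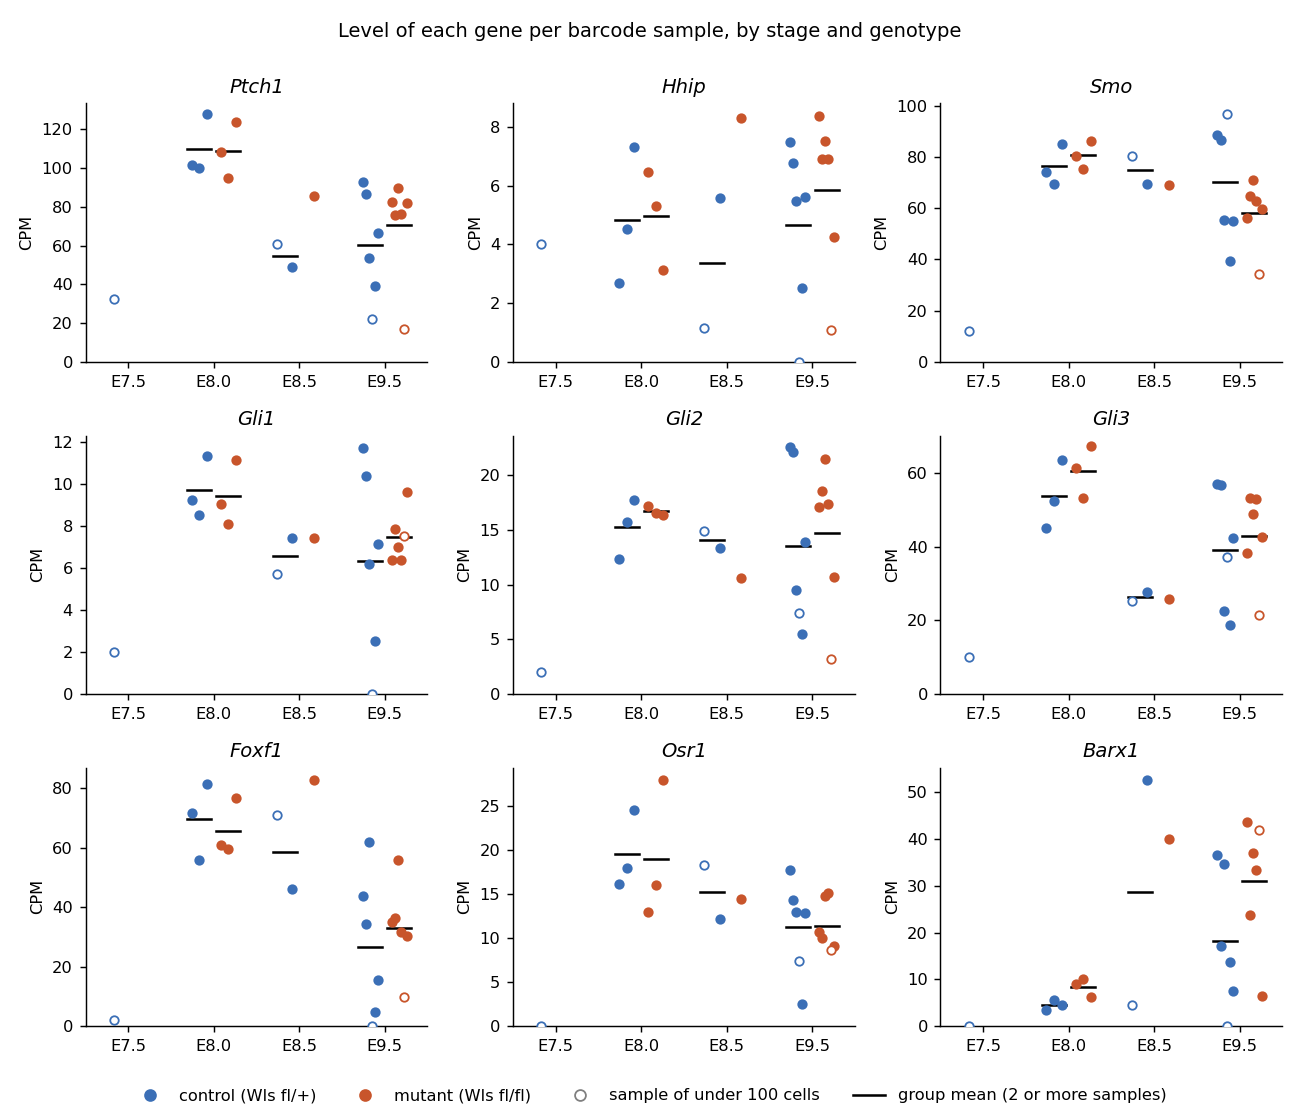
CPM of each gene in each of the 22 barcode samples by stage, with controls in blue and mutants in orange; open symbols are samples of under 100 cells and the black line is the mean of a group of 2 or more. Controls and mutants overlap in every panel and stage with 2 or more samples a side except Barx1 at E8.0, and the E9.5 controls spread over a wider range than the E8.0 samples.

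Between genotypes, none of the 9 genes passed with edgeR when all samples and cells and the filter on low counts were used, in samples in which Wls itself was lower. Smo, Gli1 and Barx1 passed in some fits on fewer cells, on run 1 alone or without that filter, and Osr1, Hhip and Barx1 within some groups of cells without it, as given below. Over all stages, with stage and run in the model, 0 of 9 passed, where 10.2% of the 20831 genes did. One of the 9, Smo, had an unadjusted p under 0.05, where 23.3% of all genes did. DESeq2 called 0 of 9 and 3274 of 20831 genes, with 0 of 9 and 5084 of all genes at an unadjusted p under 0.05. At E8.0 edgeR called 0 of 9 (0.0244% of all genes), with 1, Barx1, at an unadjusted p under 0.05 (9.84% of all genes). DESeq2 called 0 of 9 and 45 of 16416 genes there, with 1 of 9 and 1240 of all genes at an unadjusted p under 0.05. At E9.5 edgeR called 0 of 9 (10.3% of all genes), again with 1, Smo, at an unadjusted p under 0.05 (26.3% of all genes), and DESeq2 called 1, Smo, and 15.7% of all genes. A term for how the genotype difference changed from E8.0 to E9.5 passed for 0 of 9 (0.464% of all genes). At an unadjusted p under 0.05 were 0 of 9 and 11.5% of all genes. DESeq2 called 0 of 9 and 395 of 17872 genes for this term, with 1 of 9 and 2221 of all genes at an unadjusted p under 0.05. The median log2 fold change of the 9 genes was -0.01 over all stages, against 0.02 over all genes tested.

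Smo had the genotype difference with the smallest error. At E8.0 it was 74.3, 69.7 and 84.98 CPM in controls and 80.3, 75.5 and 86.1 CPM in mutants, which overlap. At E9.5 its lowest, median and highest values were 39.4, 71.0 and 96.7 CPM in controls and 34.5, 61.3 and 71.0 CPM in mutants. Within run 1 the 2 E9.5 controls (86.7 and 88.6 CPM) lay above the 3 mutants (62.8 to 71.0), and within run 3 the 2 controls (39.4 and 55.1) lay below the 2 mutants (56.0 and 59.8). The log2 fold change was -0.17 over all stages (95% interval -0.32 to -0.02, edgeR adjusted p = 0.144) and -0.25 at E9.5 (-0.47 to -0.03, adjusted p = 0.139). With blood-like, megakaryocyte or myeloid-like and endothelial-like cells left out it passed, at -0.22 over all stages (adjusted p = 0.015), where 10.3% of all genes did, and -0.28 at E9.5 (adjusted p = 0.038), where 14.9% did. Run 1 alone gave -0.36 at E9.5 (adjusted p = 0.029), where 7.4% of all genes passed.

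The readout genes Ptch1, Hhip and Gli1 gave no difference past the threshold, with intervals that bound its size. Over all stages the log2 fold change was 0.01 for Ptch1 (95% interval -0.24 to 0.27), 0.07 for Hhip (-0.35 to 0.49) and -0.20 for Gli1 (-0.48 to 0.09). The groups of cells that carry these genes differed in share at E9.5, in both directions. Cranial mesoderm-like cells, with 6.55% of all Ptch1 UMIs, made up 0% to 0.269% of E9.5 control and 3.51% to 5.36% of E9.5 mutant samples. These shares are from clustering resolution 1, and at resolution 2 the group held 370 cells in place of 504. Cluster 1, with 11.2% of all Ptch1 and 12.9% of all Gli1 UMIs, made up 11.6 ± 4.16% of E9.5 controls (n = 5) and 2.08 ± 1.73% of mutants (n = 6), and cluster 19 made up 3.68 ± 1.85% and 0.933 ± 0.661%. The part of these shares in the values was not tested. At E8.0 Gli1 was 9.26, 8.55 and 11.3 CPM in controls and 9.03, 8.10 and 11.2 CPM in mutants, values that interleave. At E9.5 Gli1 was 0, 6.67 and 11.7 CPM (lowest, median, highest) in controls and 6.37, 7.27 and 9.61 CPM in mutants. The 0 was that of Bar6, a sample of 6 cells whose 95% interval for counting error reached 27.4 CPM. Within run 1 it was 10.4 and 11.7 CPM in the controls and 6.40 to 7.86 CPM in the mutants, which do not overlap, and run 1 alone called it (-0.59, adjusted p = 0.043). Within run 3 it was 2.51 and 7.17 CPM in controls and 6.37 and 9.61 CPM in mutants, which overlap.

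Gli2 and Gli3 differed by -0.12 (-0.37 to 0.13) and -0.01 (-0.19 to 0.17) over all stages. Among the splanchnic factors, Foxf1 differed by 0.12 (-0.32 to 0.56) and Osr1 by -0.16 (-0.49 to 0.17). Barx1 gave the largest value, 0.54 (-0.05 to 1.13, adjusted p = 0.268), and 0.59 at E9.5 (-0.13 to 1.32, adjusted p = 0.293), where it passed without the filter on low counts (0.55, edgeR adjusted p = 0.0010), as did 7.62% of all genes. At E8.0 Barx1 was 3.42, 5.52 and 4.50 CPM in controls and 9.03, 10.0 and 6.203 CPM in mutants, which do not overlap, and the log2 fold change was 0.82 (SE 0.25, 95% interval 0.25 to 1.39, unadjusted p = 0.011, adjusted p = 0.496). Cardiomyocyte-like cells, the main site of Barx1 at E8.0, made up 7.33% to 12.1% of E8.0 control and 11.6% to 15.3% of E8.0 mutant cells, and their part in the difference was not tested.

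**Figure D4:**
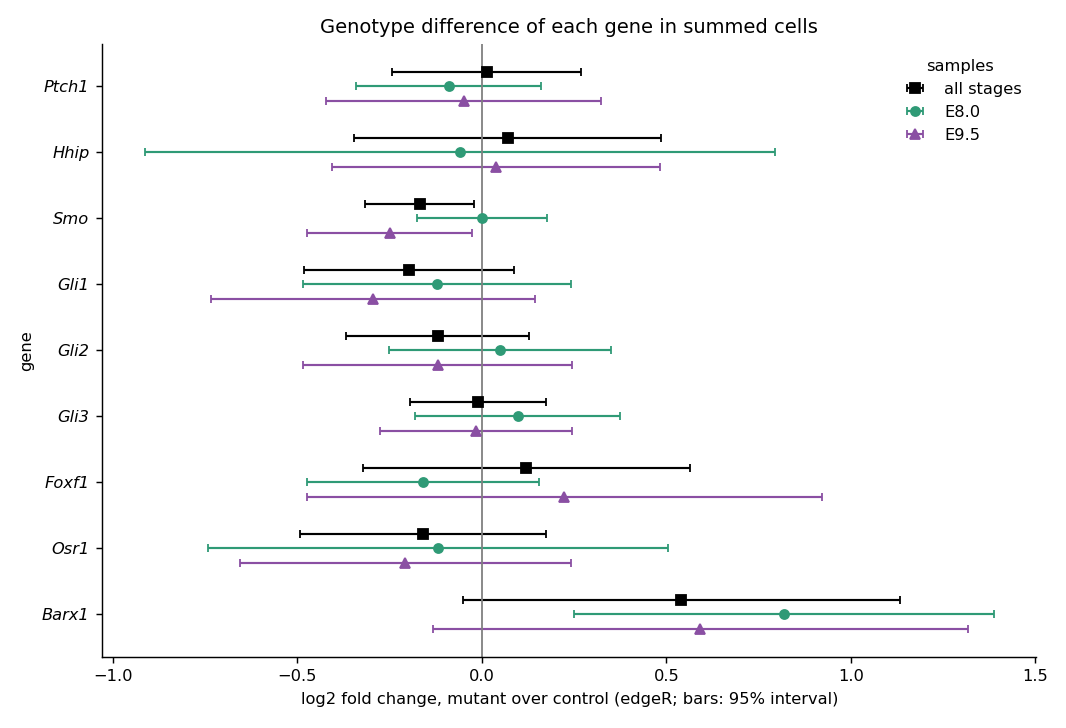
Log2 fold change of each gene, mutant over control, in all stages (squares), E8.0 (circles) and E9.5 (triangles), with 95% intervals from edgeR. All intervals reach 0 except those of Smo over all stages and at E9.5, below 0, and Barx1 at E8.0, above 0, and none passed after adjustment over all genes.

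Only 1 mutant sample came from E8.5, and its difference from the controls has no replicate check. Against the larger control sample, Ptch1 was 85.4 CPM in the mutant (exact Poisson 95% interval 79.9 to 91.2) and 49.0 CPM in the control (47.3 to 50.8). Foxf1 was 82.7 (77.3 to 88.4) and 46.1 CPM (44.4 to 47.8), and Hhip 8.30 (6.65 to 10.2) and 5.58 CPM (5.003 to 6.202). Barx1 was lower in the mutant, at 40.1 (36.3 to 44.1) against 52.7 CPM (50.9 to 54.5). The intervals of the other 5 genes overlapped, and all intervals cover counting error only. Thus 4 of 9 genes had intervals apart, where 26.5% of 18063 genes did. The smaller control, of 34 cells, placed 2 of the 4 otherwise. It held 71.0 CPM of Foxf1 (54.5 to 91.1), which overlaps the mutant, and 4.58 CPM of Barx1 (1.25 to 11.7), below the mutant, so that the 2 controls lay on either side of the mutant for Barx1. Against it 3 of 9 genes were apart, Ptch1, Hhip and Barx1, all higher in the mutant, where 7.63% of all genes were apart. Cluster 4, which is high in these 4 genes, held 16.6% of the mutant's cells and 6.74% of the larger control's, and its part in the difference was not tested.

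Within groups of cells, 12 groups had at least 3 samples of each genotype, and 0 of 93 tests of the 9 genes passed with edgeR, where 1.69% of all gene-by-group tests did. At an unadjusted p under 0.05 there were 12 of the 93 with edgeR, beside 15746 of all 130947 gene-by-group tests. DESeq2 called 0 of the 93, with 7 at an unadjusted p under 0.05. The DESeq2 share over all gene-by-group tests is not given here, so its counts are not read against a background. Without the filter on low counts edgeR called 5 of 108: Osr1 in cardiomyocyte-like cells, paraxial mesoderm or sclerotome-like cells and cluster 4, Hhip in cluster 7 and Barx1 in blood-like cells, where 1.65% of all gene-by-group tests passed. In cluster 4, 8.62% of 10769 genes passed and 0 of the 9 did. At an unadjusted p under 0.05 were 3 of the 9 and 2743 of the 10769 genes. Ptch1 in cluster 4 was 192 CPM in the E8.5 control and 268 CPM in the E8.5 mutant. At E9.5 it was 260, 248, 249 and 215 CPM in controls and 363, 255, 234 and 356 CPM in mutants, which overlap (0.37 higher on the log2 scale, 95% interval 0.08 to 0.66, adjusted p = 0.102). Osr1 in cluster 4 was 123 CPM in the E8.5 control and 55.6 in the mutant. At E9.5 it was 135, 98.7, 139 and 180 CPM in controls and 73.7, 89.4, 133 and 83.1 CPM in mutants (-0.58, -1.03 to -0.13, adjusted p = 0.102). Without the E9.5 mutant Bar21, the highest of the mutants, Osr1 passed (-0.78, edgeR adjusted p = 0.017). Each sample of cluster 4 was left out in turn, and the other such fits and the share of all genes in this fit are not given here.

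Foxf1 and Barx1, the genes most typical of cluster 4, differed there by -0.02 (-0.24 to 0.21) and -0.02 (-0.78 to 0.74). In paraxial mesoderm or sclerotome-like cells 7.46% of 11705 genes passed and 0 of the 9 did. At an unadjusted p under 0.05 were 1 of the 9 (Osr1) and 2770 of the 11705 genes. Ptch1 there was 252 and 260 CPM in E8.0 controls and 134, 204 and 208 CPM in E8.0 mutants. At E9.5 it was 92.5, 96.8, 102 and 73.6 CPM in controls and 109, 131, 136 and 115 CPM in mutants. The mutants thus lay below the controls at E8.0 and above them at E9.5 with no overlap at either stage, while over all stages the log2 fold change was 0.08 (-0.20 to 0.37). At clustering resolution 2 it was -0.41 (SE 0.12, adjusted p = 0.069), of the opposite sign. The difference between the stages was not tested in this group. The value with the smallest unadjusted p over the 12 groups was that of Foxf1 in cluster 3 (-1.33, adjusted p = 0.131). It was 14.8 CPM in the E8.5 control against 6.19 in the mutant. At E9.5 it was 2.98, 19.4, 24.4 and 13.03 CPM in controls and 6.78, 8.39 and 6.62 CPM in mutants, where Foxf1 is low in both. Smo had an unadjusted p under 0.05 in 4 of the 12 groups, where 15746 of all 130947 gene-by-group tests did. It was lower in the mutants in each: blood-like cells (-0.36), cluster 4 (-0.33), lateral plate or allantois-like cells (-0.31) and proepicardium-like cells (-0.36). In the other groups Smo ran from -0.20 in cluster 3 to 0.06 in cardiomyocyte-like cells, with cluster 7 also above 0 (0.02). The groups are parts of the same barcode samples, so their values are not independent.

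Between genotypes the co-receptor list is not reported here. The other gene lists are read against the 10.2% of all genes that passed between genotypes over all stages and the 10.3% at E9.5. The latter stands for 1766 genes, a count that became 603 when the control Bar23 was left out and 704 when Bar22 was. Among hedgehog ligands and their release factors, 0 of 6 passed between genotypes over all stages and 0 of 5 at E9.5. The ligands themselves were scarce: Shh, the ligand of notochord and endoderm, was 0 to 13.8 CPM in the 6 E9.5 controls (129 UMIs in all) and 0 to 13.3 CPM in the 6 mutants (60 UMIs of a smaller total). None of the 12 genes of signal transduction passed in these comparisons. Of 10 cilium genes 1 passed, a share near that of all genes: Arl13b, a ciliary GTPase needed for the response, which was higher in mutants over all stages (0.33, adjusted p = 0.0085), at E9.5 (0.48, adjusted p = 0.011) and in cluster 4 (0.85, adjusted p = 0.019).

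Over all stages 2 of 14 other hedgehog-responsive genes were higher and 1 lower, and 2 of 15 splanchnic and posterior second heart field genes were higher and 1 lower, beside 10.2% of all genes. Of 13 other hedgehog-responsive genes tested at E9.5, 2 were higher and 4 lower, beside 10.3% of all genes in either direction. Foxl1 (-1.44, adjusted p = 0.0080) and Foxf2 (-1.03, adjusted p = 0.012), forkhead factors of gut mesenchyme, were lower, as were the sclerotome gene Pax1 (-1.42, adjusted p = 0.010) and Foxd1 (-0.93, adjusted p = 0.015). Bmp4, a growth factor of splanchnic mesoderm, was higher (0.42, adjusted p = 0.034). Foxf2 thus passed where its relative Foxf1 did not (0.22, -0.48 to 0.92); the difference between the 2 genes was not tested. Of 14 splanchnic and posterior second heart field genes tested at E9.5, 4 were higher and 2 lower, beside the same 10.3%. Tbx5 (0.68, adjusted p = 0.0074), Gata6 (0.86, adjusted p = 0.016) and Hoxb1 (0.59, adjusted p = 0.026) were among the higher, and Nr2f1 (-0.62, adjusted p = 0.015) joined Foxf2 among the lower. Proepicardium-like cells made up 2.75 ± 1.68% of E9.5 controls (n = 5) and 9.73 ± 4.47% of mutants (n = 6), and the 6 proepicardium markers summed to 7.44 to 44.6 CPM in E9.5 controls and 49.6 to 98.1 CPM in mutants, which do not overlap; their part in these values was not tested. Within cluster 4, where edgeR called 8.62% of all genes, 2 of 13 splanchnic genes tested were lower and 1 was higher. These were Tbx5 (-1.56, adjusted p = 0.00036), Nkx6-1 (-2.94, adjusted p = 0.0023) and Hoxb1 (0.64, adjusted p = 0.045). Of 11 responsive genes tested there 2 were lower, Foxl1 among them (-1.06, adjusted p = 0.023). In paraxial mesoderm or sclerotome-like cells (7.46% of all genes) 2 of 7 splanchnic genes were higher. Of 11 responsive genes in that group 1 was higher and 2 were lower, Pax1 among them (-0.73, adjusted p = 0.045). None of 7 somatic lateral plate genes passed at E9.5, and no gene of the 7 lists passed at E8.0, where 0.0244% of all genes did. The median log2 fold change at E9.5 was -0.23 for the responsive genes and 0.29 for the splanchnic genes, against 0.02 over all genes.

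Between E8.0 and E9.5, where 22.5% of all genes passed, the co-receptor Gas1 rose by 1.34 (adjusted p = 1.3e-06) and Cdon by 0.56 (adjusted p = 0.028), while Lrp2 fell (-0.92, adjusted p = 0.011). Gas1, which helps ligand reach Ptch1, was 39.9 to 64.5 CPM in E8.0 controls, 64.2 to 74.6 CPM in E8.0 mutants, 70.4 to 216 CPM in E9.5 controls and 131 to 185 CPM in E9.5 mutants.

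To ask whether the genes are found in the same cells, cells were thinned to 5000 UMIs, which left 14330 cells and set aside 447 shallower ones (365 control, 82 mutant). Of these cells 35.0% held a UMI of none of the 9 genes, 32.4% of 1, 19.9% of 2 and 8.53% of 3, and 9 cells held 7, the most seen. For each of the 36 pairs, the number of cells with both genes was divided by the number expected from the single shares within each barcode sample. The ratio was above 1 for 35 pairs and below 1 for Hhip and Gli3 (0.81).

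The highest ratios joined the splanchnic factors. Foxf1 and Barx1 were found together in 275 cells where 72.9 were expected (ratio 3.77; 3.53 to 5.58 over the 6 samples with an expectation of at least 5 cells). Osr1 and Barx1 had a ratio of 2.90 and Foxf1 and Osr1 of 2.86. Foxf1 was also found with the readout genes Hhip (2.64), Gli1 (2.25) and Ptch1 (1.84, with 1.23 to 2.71 over 16 samples). The ratio with Gli1 ran from 0.92 to 2.94 over the 6 samples with an expectation of at least 5 cells. That with Hhip rested on 3 such samples (2.39 to 3.22). In E8.0 controls Hhip was found in 4.14 ± 2.49% of Foxf1-positive and 1.93 ± 1.74% of Foxf1-negative cells (n = 3). In E8.0 mutants these shares were 2.45 ± 0.042% and 2.24 ± 0.752% (n = 3). Ptch1 and Gli1 were found together in 341 cells where 165 were expected (2.07; 1.53 to 2.90 over 13 samples), and Ptch1 and Hhip had a ratio of 2.02. Pairs with Smo, Gli2 or Gli3 lay between 0.81 and 1.39.

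When the expectation was formed within each group of cells of a sample, most of this excess was no longer there. The ratio fell to 1.06 for Foxf1 and Barx1, 0.98 for Foxf1 and Osr1 and 0.77 for Osr1 and Barx1. Among the readout genes part of it remained, at 1.39 for Ptch1 and Gli1, 1.26 for Ptch1 and Hhip and 1.28 for Hhip and Gli1, and Gli1 and Osr1 held 1.38. Hhip and Gli3 had 0.68. Without thinning, the ratio within samples was lower, at 1.41 for Ptch1 and Gli1, 1.28 for Ptch1 and Foxf1 and 2.16 for Foxf1 and Barx1. A larger share of cells then held these genes, for Ptch1 70.4% against 31.3% after thinning in E8.0 controls (n = 3). The cause of the lower ratios was not tested.

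**Figure D5:**
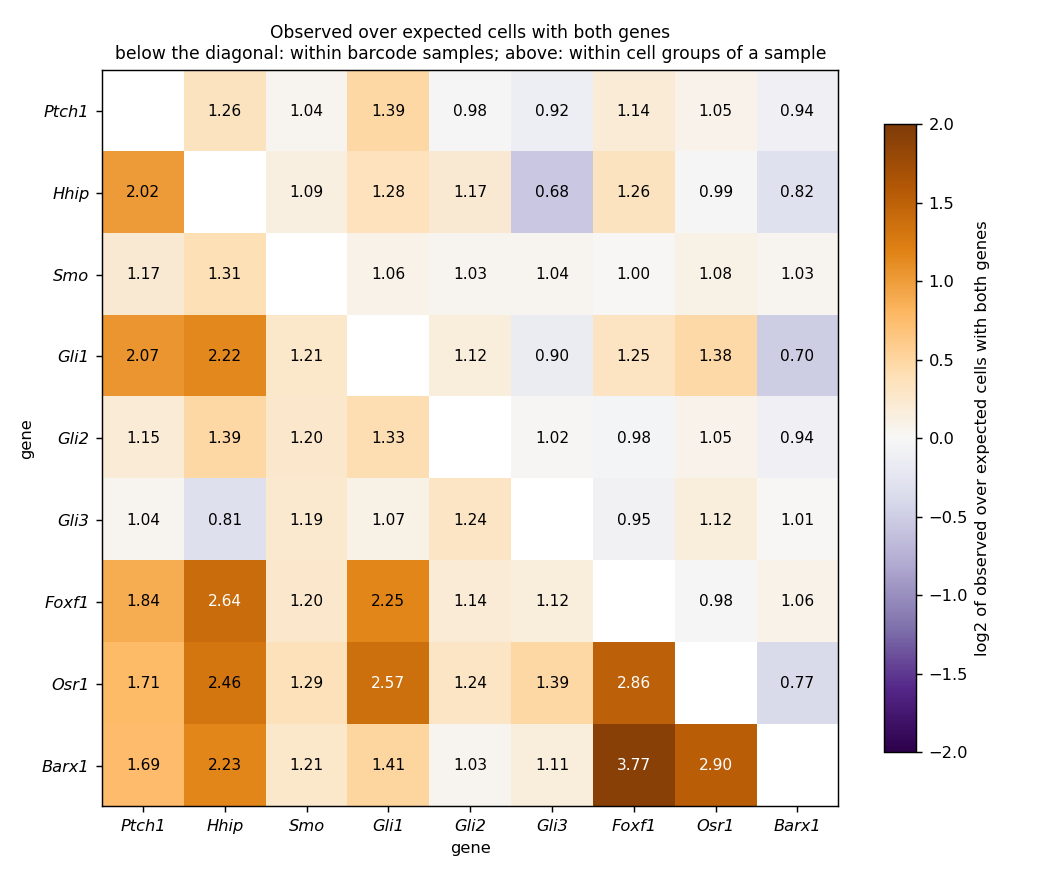
Observed over expected number of cells with a UMI of both genes for each pair, within barcode samples below the diagonal and within cell groups of a sample above it; the shade is the log2 of the printed ratio. Below the diagonal the pairs among Hhip, Gli1, Foxf1, Osr1 and Barx1 are dark except Gli1 and Barx1 (1.41), with 3.77 for Foxf1 and Barx1, and above it most pairs lie near 1, with 1.39 for Ptch1 and Gli1.

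The share of cells with Ptch1 was higher in Foxf1-positive than in Foxf1-negative cells in every sample with at least 20 Foxf1-positive cells. In E8.0 controls it was 53.4 ± 7.90% against 25.5 ± 2.23% (n = 3) and in E8.0 mutants 45.3 ± 6.24% against 29.5 ± 2.55% (n = 3). In E9.5 controls it was 50.8 ± 1.45% against 21.9 ± 6.12% (n = 4) and in E9.5 mutants 53.3 ± 8.96% against 21.4 ± 2.18% (n = 4). The mutant and control shares overlapped at both stages, and their difference was not tested. For Barx1 in Foxf1-positive cells the stages were not tested against each other. In E8.0 controls 0% of these cells held Barx1, with 0 cells where 3.88 were expected, and in E8.0 mutants 2.88 ± 2.55% (n = 3), against 22.9% in the larger E8.5 control and 15.3 ± 9.31% in E9.5 controls (n = 4). In E9.5 mutants the share was 23.0 ± 3.78% (n = 4).

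Across the 30 clusters of cells, Ptch1 and Gli1 had the most similar levels of the readout pairs (Pearson r of log2(CPM + 5) = 0.92). Values were also high for Gli2 and Gli3 (0.94), Smo and Gli3 (0.93) and Smo and Gli2 (0.91). Smo, Gli2 and Gli3 each had their lowest group mean in blood-like cells (16.8, 1.16 and 2.81 CPM), and the part of this in their r values was not tested. Barx1 had the lowest value of the 36 pairs, 0.16 against Gli3, and 0.54 against Foxf1. These values describe clusters that share samples and depth. Among all other genes with at least 50 CPM in 1 cluster, the most alike to Ptch1 were Hsd11b2 (0.82), Rbm15b (0.80) and Rnf220 (0.78), and Hsd11b2 was also the most alike to Hhip (0.84). Gli1 was most like Ptch1 itself (0.92), then Cdh11 (0.81) and Arhgap28 (0.80). Foxf1 was most like 1700017B05Rik (0.87), Myrf (0.82) and Colec11 (0.80), Osr1 most like Hoxb1 (0.72), Foxf1 (0.71) and Gm45889 (0.69), and Barx1 most like Cxcl13 (0.69), Creb5 (0.65) and Gata4 (0.61). The genes most like Smo (Dicer1, Zfp266, Acvr2b), Gli2 (Pard6g, Igdcc3, Efna2) and Gli3 (Cbx1, Dbn1, Tgif1) all reached 0.94 or more.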

How the data were processed

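The deposited matrix holds whole UMI counts per gene and cell in 3 sequencing runs. Per the submitters' processing notes, the authors used kallisto, bustools 0.46.1, Cell Ranger and GRCm38. Stage, genotype and MULTI-seq barcode of each cell were taken from the deposited cell table. The 9 genes and the gene lists were chosen with earlier results of these data known. Not every gene of the lists is reported here.

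Counts were summed over the cells of each barcode sample and tested with edgeR 4.0.16 (TMM, filterByExpr, quasi-likelihood test, Benjamini-Hochberg adjustment over all genes) in R 4.3.3. Alternatives were DESeq2 1.42.0 and limma 3.58.1 on log2(mean CPM per cell + 1). The tests were tested on simulated data. Clusters were made at resolution 1 (scanpy 1.11.5, leidenalg 0.10.2) without the 9 genes, the hedgehog lists, Wls and Xist. Doublets were not called again. Groups of cells were compared in samples with at least 20 cells of the group, and tested with at least 3 such samples per genotype. Named beside the 9 genes were some of the list members that passed and the 3 genes most alike to each by Pearson r over 30 clusters.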

Additional observations from a re-analysis of the deposited data

Results flagged for a closer look

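Ptch1 stood at 17.2 CPM in the E9.5 mutant Bar5, a sample of 57 cells in run 2, and the nearest of the 5 other E9.5 mutants at 75.9 CPM. Of 18 groups of 6 samples tested, this was the only one with a sample so far from the rest, and since chance marks about 1 in 20 such groups, about 1 of the 18 would be marked by chance.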

How the results depend on the processing

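Over alternatives other than leaving out 1 sample, 51 of 66 counts stayed within 1.5 times their value. Of single values 554 of 644 were taken as the same. With 1 sample left out these were 116 of 121 and 1399 of 1458. A log2 fold change was taken as the same if its call was kept. A change of sign was allowed where neither fit called the gene and the values lay within 2 standard errors. Numbers of calls were held to 1.5 times, and levels and co-detection ratios to 1 SD. In all, 134 gene-by-setting values of uncalled genes changed sign. The cause was not tested for any of the changes that follow. Genotype calls among the 9 genes rose from 0 to 1 over all stages without blood-like, megakaryocyte or myeloid-like and endothelial-like cells, and at E9.5 to 1 in that setting, 1 with DESeq2, 1 without the low-count filter (Barx1) and 2 in run 1 alone; within groups of cells they rose to 5 without that filter. From E8.0 to E9.5 the 4 calls became 0 with limma, 1 with run as a term, 1 in controls and 2 in mutants, and 1 to 4 with 1 sample left out. From E8.0 to E8.5 the 2 calls became 0 with limma and 0 with run as a term, and 1 to 3 with 1 sample left out. From E8.5 to E9.5 the 0 calls became 1 with DESeq2, 1 without blood-like and related cells, and 0 to 2 with 1 sample left out.

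Reversed genotype values over all stages were Gli1 with limma (0.35), in run 2 (0.20) and run 3 (0.30), Smo (0.068) and Gli2 (0.23) in run 3; at E8.0, with the male share as covariate, Smo (-0.23), Gli2 (-0.32) and Gli3 (-0.35); at E9.5, Gli1 with limma (0.51), Foxf1 in run 2 (-1.95), and in run 3 Ptch1 (0.41), Smo (0.071), Gli1 (0.29) and Gli2 (0.23). The stage difference of the genotype effect reversed for Gli1 with limma (0.56). With run as a term, E8.0 to E8.5 reversed for Ptch1 (0.10) and Gli2 (0.82), and E8.5 to E9.5 for Ptch1 (-0.46), Gli2 (-0.44) and Gli3 (-0.029). At clustering resolution 2, paraxial mesoderm or sclerotome-like Ptch1 (-0.41) and Hhip (-0.41) reversed, and at resolution 0.5, 5 of the 9 genes were highest in the same group.

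Among all genes, the genotype calls over all stages were 2132 (931 higher), against 3274 with DESeq2 (1875 higher), 506 with limma, 1376 without the run term, 945 with the male share, 1 without E9.5 and 2, 27 and 57 in runs 1, 2 and 3. At E8.0 they were 4, against 45 with DESeq2, 35 without the filter and 0 with the male share; at E9.5, 1766, against 2701 with DESeq2, 132 with limma, 637 without the run term and 1283, 176 and 58 by run. From E8.0 to E9.5 they were 4070, against 1853 with limma, 3877 with the run term, 651 in controls and 2578 in mutants. From E8.0 to E8.5 they were 3429, against 153 with limma and 131 with the run term. From E8.5 to E9.5 they were 6, against 1659 with DESeq2 and 544 without blood-like and related cells. The stage difference gave 83, against 395 with DESeq2, 669 without the filter, 191 without blood-like and related cells, 32 in run 1 and 0 with limma. With 1 sample left out these counts ran from 1259 to 2479 over all stages, 1 to 10 at E8.0, 603 to 2353 at E9.5, 29 to 137 for the stage difference, 2965 to 4483 from E8.0 to E9.5, 510 to 4213 from E8.0 to E8.5 and 0 to 2290 from E8.5 to E9.5. No paired analysis was possible because replicate numbers name barcodes and do not pair samples of the 2 genotypes. Samples of 6, 28, 34 and 57 cells limit the precision of their own values.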

Other observations

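The E7.5 control sample of 28 cells, the 1 sample of its stage, held 32.2 CPM of Ptch1 (16 UMIs), 12.1 CPM of Smo (6 UMIs) and 10.1 CPM of Gli3 (5 UMIs). It was in the fit of genotype over all stages with a stage level of its own, and without it 18063 genes were tested in place of 20831, 2295 were called in place of 2132, and 0 of the 9 genes passed.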
